A study of Mus musculus with 12 samples.

Results

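The mitochondrially encoded subunits of the respiratory chain were represented in the heart data by 7 rows of the deposited table, which are described here. A row was taken when it was a locus outside the gene annotation that the table's own protein match called mitochondrial, or when its KEGG entry gave a mitochondrially encoded protein, and it had to hold at least 1 read over the 12 libraries. Of the 27883 rows with reads among 43686 rows in all, 6 unannotated loci and 1 annotated row met this. There were 2590 unannotated loci in the table. The 7 rows stood for 4 of the 13 proteins that mouse mitochondrial DNA encodes, namely COX1 and COX3 of cytochrome c oxidase and ND2 and ND5 of complex I, and the other 9 proteins had no such row. The rule used descriptions and a read minimum and no difference between the groups.

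Bulk mRNA of the heart, taken by the methods from the ventricular wall, was sequenced in 6 WT and 6 KO mice, of strain C57BL/6 by the labels and on a C57BL/6J background by the methods. WT mice carried floxed Sdhaf4 alleles (Sdhaf4fl/fl) without Cre, and KO mice carried the same alleles with Ckmm-Cre. This Cre is driven by the muscle creatine kinase promoter, so the gene is deleted in heart and skeletal muscle fibres and not in the other cells of the heart, while the labels call these mice Sdhaf4-/-. Both groups were 2 months old by the labels, which name no treatment. The results text of the paper gives a younger age for these hearts. Its reporting summary names male mice of 2 ages for molecular and omics work, the older of which is near that of the labels. The comparison asks how the loss of Sdhaf4, an assembly factor of succinate dehydrogenase (complex II), went with the levels of these loci.

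Mitochondrial DNA is transcribed inside the organelle by its own polymerase into long precursors, which are cut into messenger, ribosomal and transfer RNAs. The proteins it encodes form the membrane cores of complexes I, III, IV and V and are assembled with a larger number of subunits that come from nuclear genes, whereas complex II is wholly nuclear encoded. ND2 and ND5 belong to the proton-pumping membrane arm of complex I, COX1 holds the catalytic heme and copper centre of complex IV, and COX3 is a core subunit beside it. Pieces of mitochondrial DNA have also been copied into nuclear chromosomes during evolution, and a read from a mitochondrial transcript can be assigned to such a copy when the reference offers no closer place. The counts alone do not tell whether a read came from mitochondrial DNA or from a nuclear copy, and the table held 0 rows on a mitochondrial chromosome.

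All positions are those of the deposited table, whose identifiers belong to the C57BL/6NJ assembly. The ND2 row, MGP_C57BL6NJ_G0040788, covered chr2:20898019-20898472 on the minus strand (454 bases). It lay inside the span of Myo3a and 31877 bases from Gad2, and it was the only annotated row of the 7. The 2 COX3 loci overlapped on opposite strands of chromosome 13 between Prl2a1 and Prl4a1. Novel00516 covered chr13:26480775-26481039 on the plus strand, and Novel00583 spanned chr13:26421683-26481029 on the minus strand with a counted length of 227 bases. Of the 3 ND5 loci, Novel00542 (chr13:88775366-88775621, plus strand) and Novel00624 (chr13:88775409-88775665, minus strand) overlapped each other in the same way between Tmem161b and Ccnh. Novel02466, the COX1 locus, covered bases 676 to 2496 on the minus strand of an unplaced scaffold (1821 bases) and was the only row on it.

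The table holds no sequences, so the C57BL/6J reference (GENCODE M21, GRCm38) was used. Its annotated genes between the same flanking genes, with the flanking genes counted in, were compared with the protein-coding mitochondrial transcripts. Only gene transcripts in their own direction were compared, and the DNA between genes was not searched. From Myo3a to Gad2, both included, that reference has 8 genes, of which 3 resembled a mitochondrial transcript. These were Gm13341 (like mt-Co2, 95.9% identity), Gm13340 (like mt-Co1, 97.6%) and Gm13339, a pseudogene of 510 bases that matched bases 529 to 1038 of mt-Nd2 at 96.7% with 17 mismatches. Between Tmem161b and Ccnh it has Gm4076, which matched bases 706 to 1659 of mt-Nd5 at 95.2%. Of the 7 genes from Prl2a1 to Prl4a1, both included, 0 resembled a mitochondrial transcript. A copy outside these genes or on their other strand would not have been seen. The first 120 bases of 3 of these matches are given to show how close the pairs are, with the bases at which the 2 sequences of a pair differ in capitals. The pairs differed at 3, 6 and 3 positions.
mt-Nd2, bases 529 to 648: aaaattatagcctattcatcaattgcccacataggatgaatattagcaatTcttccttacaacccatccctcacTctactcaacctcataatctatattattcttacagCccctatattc
Gm13339, bases 1 to 120: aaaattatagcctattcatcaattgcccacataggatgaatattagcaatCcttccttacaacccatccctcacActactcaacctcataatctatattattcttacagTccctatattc
mt-Nd5, bases 706 to 825: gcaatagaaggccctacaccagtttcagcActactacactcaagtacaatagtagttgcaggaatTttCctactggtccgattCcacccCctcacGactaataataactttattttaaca
Gm4076, bases 1 to 120: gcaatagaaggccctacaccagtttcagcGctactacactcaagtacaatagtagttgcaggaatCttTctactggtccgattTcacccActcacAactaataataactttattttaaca
mt-Co1, bases 1 to 120: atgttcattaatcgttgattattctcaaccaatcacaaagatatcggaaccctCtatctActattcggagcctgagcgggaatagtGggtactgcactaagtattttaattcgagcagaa
Gm13340, bases 1 to 120: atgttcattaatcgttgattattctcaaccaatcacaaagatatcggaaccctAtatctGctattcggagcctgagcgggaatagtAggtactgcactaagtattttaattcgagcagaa

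The study also used PCR primers for all 4 proteins, and the ND2 and ND5 amplicons lie before the stretches that Gm13339 and Gm4076 resemble. The ND2 primers enclose bases 3 to 173 of mt-Nd2 (171 bases) and the ND5 primers bases 520 to 702 of mt-Nd5 (183 bases), each without a mismatch. The Cox3 primers enclose bases 466 to 664 of mt-Co3 (199 bases), also without a mismatch. For Cox1 the forward primer has 3 mismatches to mt-Co1 and the reverse primer 0, and no amplicon is given. The last of the capitals in the mt-Co1 pair above lies in this forward primer site, where the primer has the base of Gm13340. In the sequences of ND2 and ND5 the primer sites are in capitals, the second one as the reverse complement of its primer.
mt-Nd2, bases 3 to 173: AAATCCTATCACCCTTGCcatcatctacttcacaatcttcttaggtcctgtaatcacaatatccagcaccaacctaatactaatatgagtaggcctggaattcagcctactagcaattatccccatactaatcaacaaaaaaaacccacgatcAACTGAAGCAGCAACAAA
mt-Nd5, bases 520 to 702: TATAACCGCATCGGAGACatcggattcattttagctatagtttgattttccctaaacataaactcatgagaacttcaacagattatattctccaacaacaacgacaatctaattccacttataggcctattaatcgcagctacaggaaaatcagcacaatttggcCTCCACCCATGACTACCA

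The third ND5 locus, Novel01178, stood alone at chr18:67756907-67757284 on the minus strand (counted length 295 bases), between Sec11c and Grp. In the C57BL/6J reference 1 of 6 genes in that interval, flanking genes included, resembled a mitochondrial transcript, and it was like mt-Atp6. The protein match of both COX3 loci was to a vole (Microtus fortis calamorum), and that of the other unannotated loci was to Mus musculus or Mus musculus domesticus.

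Library totals were 23747014 to 27159228 counts in WT and 26542930 to 31393393 in KO, so every locus was read deeply, and the KO libraries were on the whole larger. Sdhaf4 was at 14.3 to 30.3 CPM in WT and 2.25 to 2.73 CPM in KO (log2 fold change −3.39 ± 0.16 SE, edgeR adjusted p = 1.95e-10). All 10 cardiomyocyte markers were counted, with summed levels of 54028 to 58588 CPM in WT and 46517 to 61404 CPM in KO, and 5 of them were lower and 2 higher in KO. All 6 fibroblast markers were higher in KO (summed 1309 to 1594 against 2172 to 4200 CPM). Of the other markers, 3 of 5 endothelial genes were higher, 2 of 4 macrophage genes lower, and 1 of 4 smooth muscle and pericyte genes lower and 1 higher. Of 2 erythroid genes 0 passed. Skeletal muscle markers summed to 10.1 CPM at most, and the atrial genes Myl7 and Sln had 27 and 8 counts over all 12 libraries. Nppa and Myl4, of the same atrial list, rose (log2 fold change 5.65 and 0.72, edgeR adjusted p = 2.02e-07 and 0.00515). The paper measured Nppa, as Anp, among hypertrophy-associated genes of the left ventricle. Mylpf, a skeletal muscle marker, fell by 1.81 on the log2 scale from a mean of 1.38 CPM (adjusted p = 0.00294). The other skeletal muscle marker tested, Tnnt3, had a mean of 0.99 CPM in WT and 1.55 CPM in KO. It did not pass (log2 fold change 0.66, edgeR adjusted p = 0.373). The part of these shifts in the results on the 7 loci was not tested, and in bulk RNA fewer cells of a type and less RNA per cell cannot be told apart.

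The 7 loci together took 8.43% to 11.3% of all counts in WT (mean 10.2% ± 0.98 SD, n = 6) and 8.93% to 10.6% in KO (mean 9.62% ± 0.62 SD, n = 6), so that the groups overlapped. Novel02466 alone held 79.0% to 81.1% of that share in WT and 79.7% to 81.3% in KO. It was the row with the most counts of the whole table, with 26075285 over the 12 libraries. Novel00516 ranked 3 by count with 4462882, the ND2 row 22, Novel00583 39, Novel01178 222, Novel00624 407 and Novel00542 2182 with 26009. Without Novel02466 the other 6 took 2.01% ± 0.13 (SD, n = 6) of the counts in WT and 1.88% ± 0.17 (SD, n = 6) in KO.

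Per length, the order of the loci was another. In the deposited FPKM, a count scaled by row length and library size, Novel00516 (COX3) was the highest in WT at 51991 ± 3531 (SD, n = 6) and Novel02466 (COX1) followed at 44741 ± 4742. The ranges of this pair overlapped in WT, 45760 to 56305 against 36576 to 50350, and in KO, 46117 to 56336 against 39785 to 46425. The ND2 row and Novel00583 (COX3) came next and were close in WT, at 7854 ± 473 and 7818 ± 841 (SD, n = 6). In KO the ND2 row was at 6217 ± 617 and Novel00583 at 7311 ± 1998 (SD, n = 6), and their ranges overlapped as well. The ND5 loci were lowest in both groups. Novel01178 was at 1907 ± 106, Novel00624 at 1295 ± 80.2 and Novel00542 at 318 ± 25.4 in WT (SD, n = 6), and the ranges of these 3 did not overlap in WT or in KO.

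KO was compared with WT on CPM (each count over the library total, scaled by the TMM method to a common total) with edgeR's quasi-likelihood test, adjusted over 17155 rows that had enough counts, and all 7 loci were among them. At an adjusted p under 0.05, 1 of the 7 was called, the ND2 row, which was lower in KO. By the same rule 51.1% of all rows were called, 25.5% lower and 25.6% higher in KO. Under the stricter rule of the methods, an adjusted p of 0.005 and a log2 difference of 1, 0 of the 7 and 10.2% of all rows were called. The WT and KO libraries overlapped in 7 of 7 loci, whereas in 30.1% of all rows they did not. The median absolute log2 fold change was 0.09 over the 7 loci and 0.30 over all rows, and the median standard error was 0.08 over the 7 and 0.11 over all rows. The median signed log2 fold change was −0.09 over the 7 and 0.0022 over all rows.

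The ND2 row, named for a subunit of the membrane arm of complex I, was at 3089 CPM at the lowest, 3647 at the median and 3891 at the highest in WT, and at 2484, 2733 and 3452 CPM in KO. KO replicate 3 was the one KO library within the WT range, and the other 5 KO libraries were below the lowest WT library, which was WT replicate 6. The mean fell from 3574 ± 276 to 2830 ± 355 CPM (SD, n = 6 each). The log2 fold change was −0.34 ± 0.08 (SE, 95% interval −0.51 to −0.16), which is 0.792 of the WT level, with an adjusted p of 0.00228 in edgeR's test. Of all rows, 54.3% had a smaller absolute fold change. The gene in whose span the row lies, Myo3a, had no counts in any library.

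The COX1 locus Novel02466 was at 64828, 82306 and 93796 CPM (lowest, median and highest) in WT and at 70307, 75213 and 87875 CPM in KO. All 6 KO libraries were within the WT range. Its log2 fold change was −0.08 ± 0.09 (SE, 95% interval −0.27 to 0.12), with an adjusted p of 0.522 in edgeR's test.

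Both COX3 loci overlapped between the groups. Novel00516 was at 11803, 14172 and 15264 CPM in WT and at 11860, 13146 and 15518 CPM in KO (lowest, median and highest), with a log2 fold change of −0.04 ± 0.08 (SE, 95% interval −0.21 to 0.13, adjusted p = 0.691 in edgeR's test). The locus on the other strand, Novel00583, was at 1429, 1782 and 2008 CPM in WT and at 1194, 1543 and 2336 CPM in KO. Its KO libraries lay on both sides of the WT range, 3 below and 2 above it, and their SD of 500 CPM compared with 207 CPM in WT (n = 6 each). The log2 fold change was −0.09 ± 0.17 (SE, 95% interval −0.46 to 0.28, adjusted p = 0.686), the widest interval of the 7.

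The ND5 loci had smaller values in the KO mean, and each overlapped between the groups. Novel01178 was at 484, 569 and 590 CPM in WT and at 431, 508 and 600 CPM in KO, with 3 KO libraries below the WT range and 1 above it. Its log2 fold change was −0.13 ± 0.08 (SE, 95% interval −0.30 to 0.04, adjusted p = 0.177 in edgeR's test), and without KO replicate 3 it was −0.19 with an adjusted p of 0.034. This is the one case among the 7 in which leaving out a library changed a call. Novel00624 was at 312, 330 and 373 CPM in WT and at 256, 314 and 360 CPM in KO (log2 fold change −0.11 ± 0.08 SE, adjusted p = 0.296 in edgeR's test). Novel00542, the row with the fewest counts of the 7, was at 69.2, 83.7 and 88.4 CPM in WT and at 60.1, 73.5 and 99.4 CPM in KO (log2 fold change −0.08 ± 0.13 SE, adjusted p = 0.629). In both of these rows KO libraries 1 and 4 were the lowest.

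**Figure D1:**
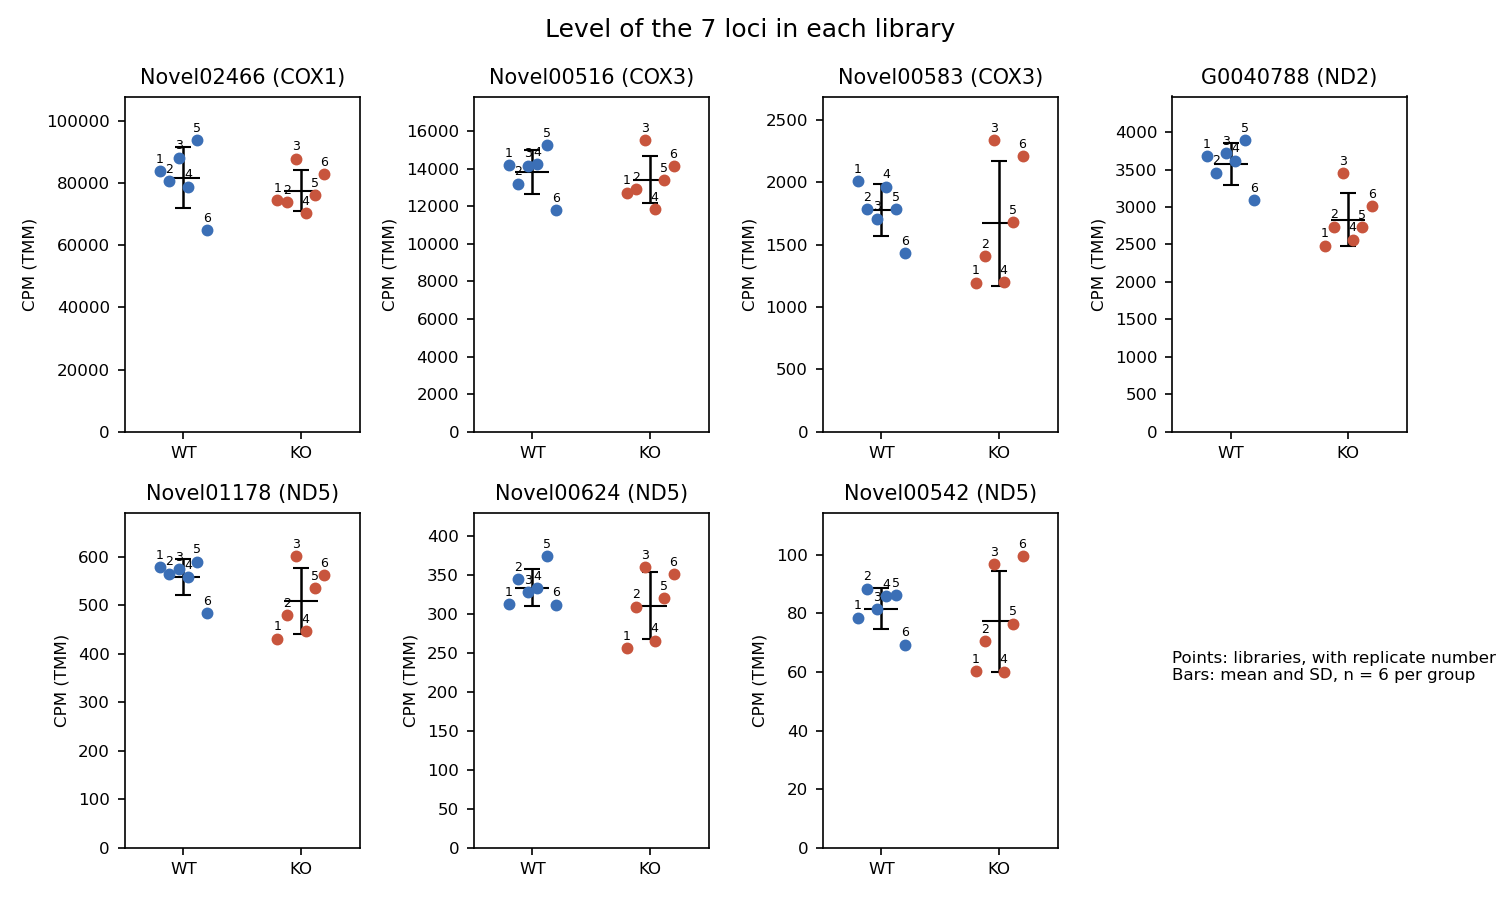
Level of each of the 7 loci in CPM (TMM-scaled, y axis from 0, one scale per panel) in the 6 WT and 6 KO libraries; points are libraries with their replicate number, and bars are the mean and SD. In the ND2 panel 5 of the 6 KO libraries lie below every WT library, and in the COX1 panel all 6 KO libraries lie within the WT range.

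When the rows of a protein were added up before the fit, neither COX3 nor ND5 passed. The summed log2 fold change was −0.05 ± 0.08 for COX3 (2 rows, adjusted p = 0.673) and −0.12 ± 0.08 for ND5 (3 rows, adjusted p = 0.246; SE, edgeR). For ND5 the summed level was 973 ± 60.5 CPM in WT and 896 ± 126 CPM in KO (SD, n = 6), and 3 KO libraries were below the WT range and 1 above it.

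The spread between libraries was shared by the loci. WT replicate 6 had the lowest value of the WT group in 7 of 7 loci, with a median deviation from the WT mean of −0.23 (log2). WT replicate 5 was the highest of its group in 5 of 7. In the KO group, replicates 3 and 6 were the highest 2 in 7 of 7 loci, replicate 3 the highest in 6, and the lowest value was that of replicate 1 in 4 loci and of replicate 4 in 3. The median deviation of the 7 loci from the WT mean was 0.11 in KO replicate 3 and 0.03 in KO replicate 6, against −0.38 in KO replicate 1 and −0.33 in KO replicate 4. The 7 loci are therefore not 7 independent observations of the genotype, since they moved together within a library.

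**Figure D2:**
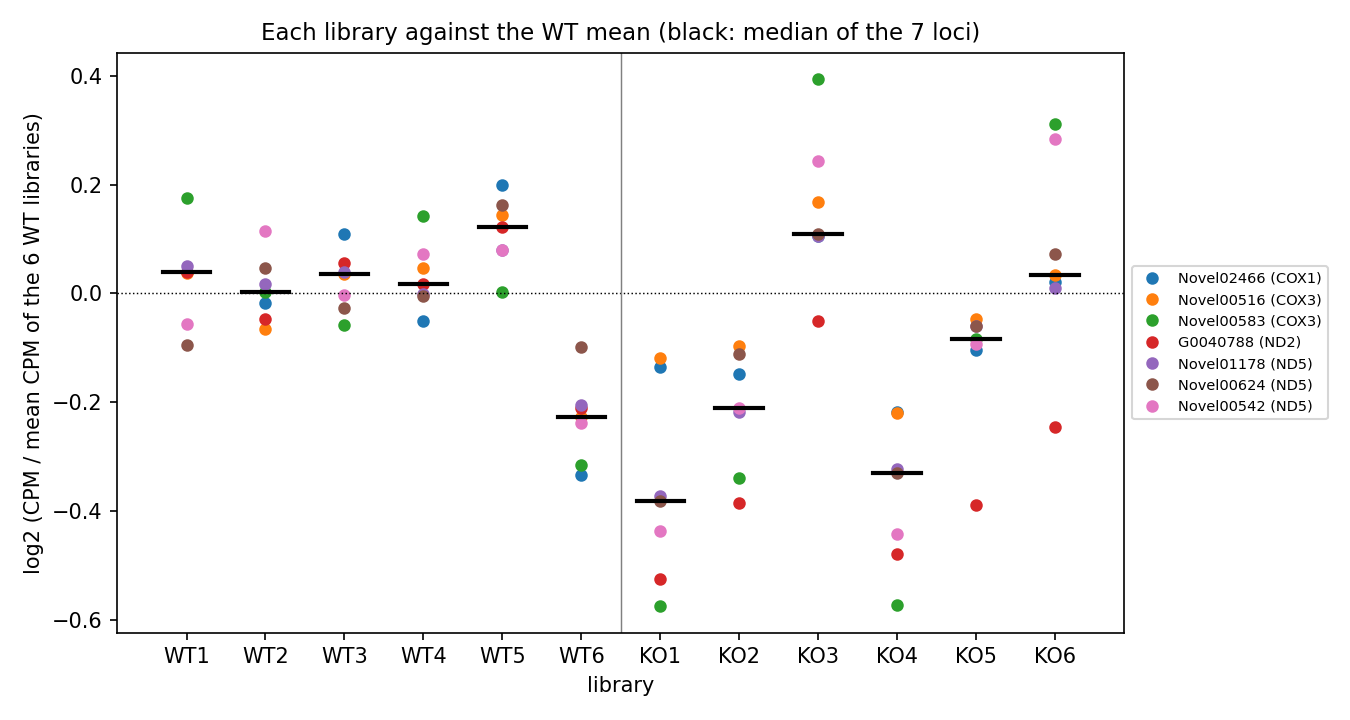
Deviation of each locus from its mean in the 6 WT libraries (y axis, log2 scale) in every library (x axis); coloured points are loci and black bars the median of the 7. The ND2 row is below 0 in all 6 KO libraries, whereas the other 6 loci are above 0 in KO3 and KO6.

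Because one locus passed the test and the others did not, the difference between them was examined directly, by the ratio of the ND2 row to each other locus within each library. This needs no scaling between libraries. The ND2 row had been singled out by its own test, and its log2 fold change was the lowest among the loci. A lower ratio in KO was therefore largely set beforehand. The 6 ratios also share the ND2 row. They are not independent evidence of its fall or of a difference between it and the other loci. Against Novel00516 (COX3) the log2 ratio was −1.95 ± 0.02 in WT and −2.25 ± 0.07 in KO (SD, n = 6), and all 6 KO libraries were below every WT library (difference −0.30, exact two-sided permutation p = 0.00216). The WT libraries were close together in this ratio, from −1.98 to −1.93, although the loci themselves varied. The ratio to the COX1 locus differed by −0.27, that to Novel00624 (ND5) by −0.23 and that to Novel01178 (ND5) by −0.20. Each of these was lower in all 6 KO libraries than in any WT library, with the same exact permutation p, the smallest that 6 against 6 can give. The ratio to Novel00542 (ND5) differed by −0.24, with 4 KO libraries below the WT range (exact permutation p = 0.0152). The ratio to Novel00583 (COX3) differed by −0.21 and did not pass (exact permutation p = 0.128). Adjusted over the 6 ratios, these exact permutation p-values ran from 0.00325 to 0.128, and 5 of 6 were under 0.05. They take no account of the choice of the ND2 row, so that count is not repeated support for a difference. All 6 ratios include KO replicate 3, the KO library whose ND2 level was within the WT range.

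**Figure D3:**
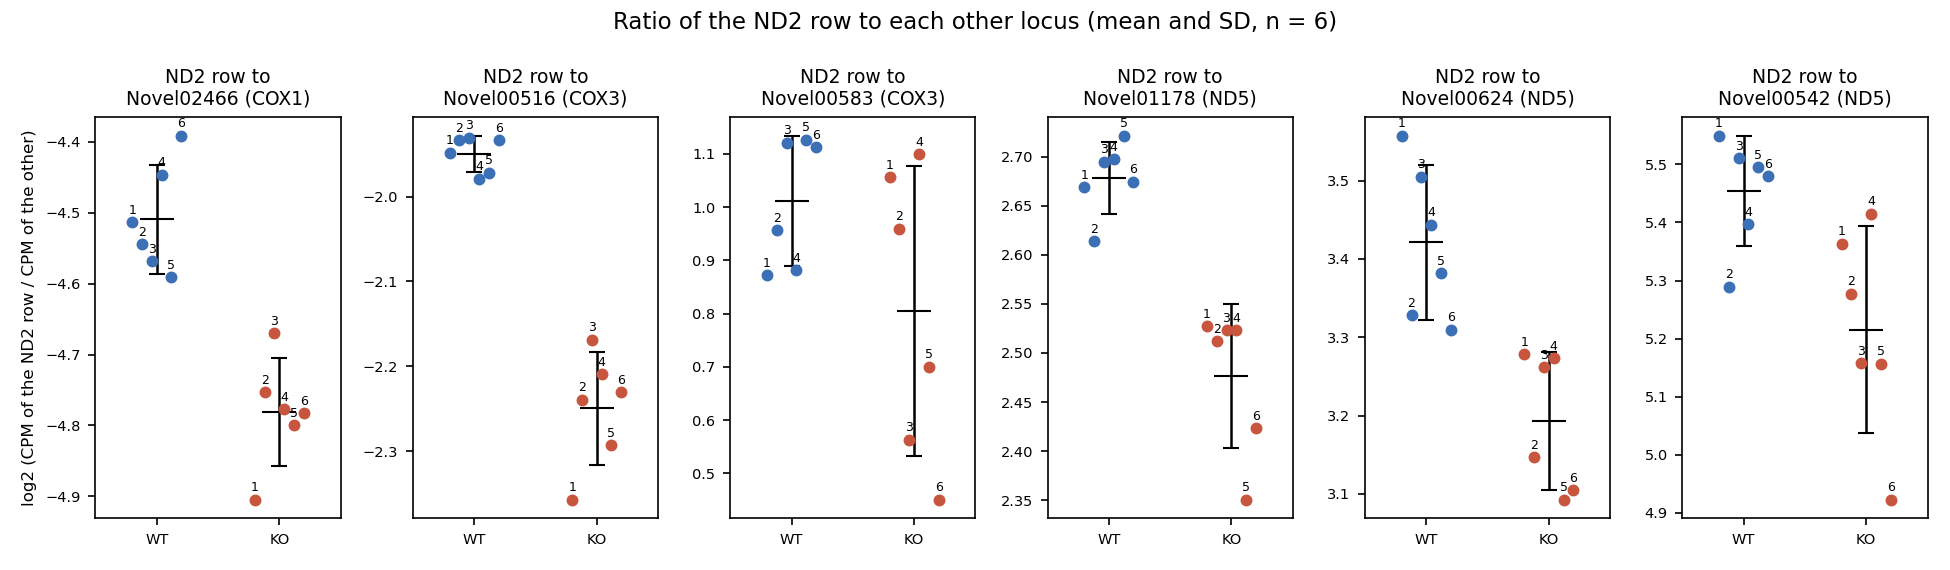
Ratio of the ND2 row to each other locus (y axis, log2, with its own range in each panel) in the WT and KO libraries; points are libraries with their replicate number, and bars are the mean and SD. The groups are apart in 4 of the 6 panels, and in the panel of Novel00583 they overlap.

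The overlapping rows on opposite strands stood in similar mean proportions in both groups. Novel00583, on the minus strand, held 11.4% ± 0.82 (SD, n = 6) of the counts of the COX3 pair in WT and 10.9% ± 2.05 in KO, with ranges of 10.5% to 12.4% and 8.58% to 13.5%. KO replicates 1 and 4 had the lowest shares, and KO replicates 3 and 6 were above 13%. In the ND5 pair the minus-strand row Novel00624 held the larger share, 80.3% ± 0.95 in WT and 80.2% ± 1.49 in KO (SD, n = 6). The spans of the paired rows overlapped over 255 bases at COX3 and 213 bases at ND5. Novel00583 has a counted length of 227 bases, so not all of the COX3 overlap is counted for it. Whether reads were counted by strand is not given, so the rows within a pair may not be independent.

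Most nuclear genes of the respiratory chain were lower in KO. Of 75 such genes of complexes I, III, IV and V that were tested, 70 were lower and 3 higher, and 2 did not pass, with a median log2 fold change of −0.45 (all rows: 0.0022, with 25.5% of rows lower). Complexes III and V, with 9 and 16 of these genes, have no protein among the 7 loci, and how often genes of the list and the loci were called was not compared by a test. In complex I all 7 core genes were lower (median −0.46), as were 27 of 29 accessory genes, where the smallest p-values among falls were those of Ndufs6 (−0.70 ± 0.06 SE) and Ndufa5 (−0.84 ± 0.07), and Ndufc2 was higher (0.17 ± 0.05). In complex IV 12 of 14 were lower and 2 higher (median −0.49). Cox7a1, the heart and skeletal muscle isoform of a regulatory subunit, was at 796 to 1088 CPM in WT and 379 to 434 CPM in KO (log2 fold change −1.20 ± 0.07 SE, edgeR adjusted p = 1.47e-09). Cox6a1, the isoform common outside muscle, was at 82.3 to 94.2 CPM in WT and 101 to 127 CPM in KO (0.43 ± 0.06 SE, adjusted p = 1.22e-05), and Cox8a was higher by 0.16 ± 0.05 on the log2 scale (adjusted p = 0.0197, and 0.0604 without WT replicate 4).

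**Figure D4:**
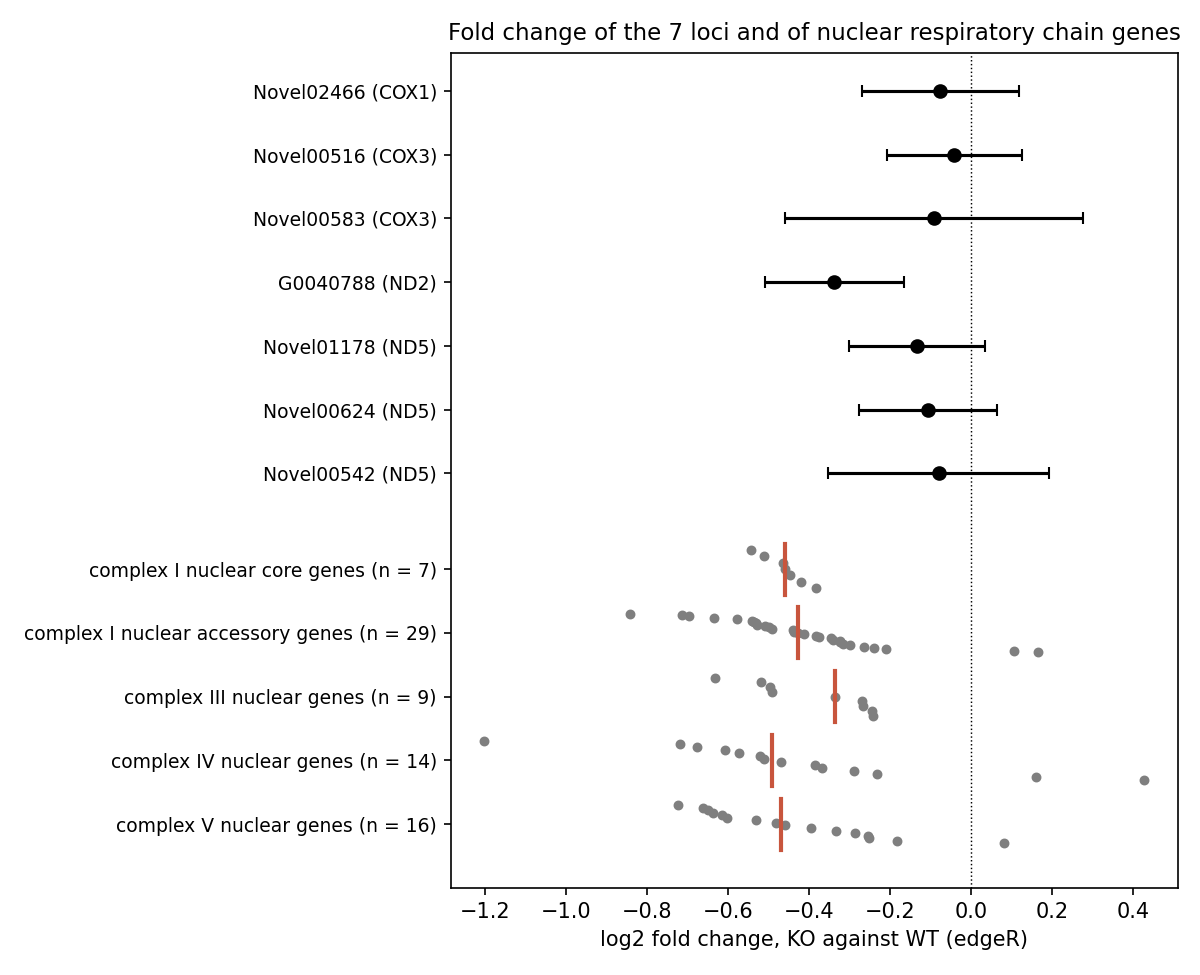
Log2 fold change of KO against WT (x axis) for the 7 loci, with 95% intervals, and for the tested nuclear genes of complexes I, III, IV and V (grey points, one per gene, with the median of each group of genes in red). The intervals of 6 loci include 0, and the medians of the nuclear groups lie between −0.49 and −0.33.

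For the locus with the most counts of each protein, the ratio to the summed level of the nuclear genes of its own complex was taken within each library, 4 ratios in all. The 14 nuclear genes of complex IV summed to 10991 ± 950 CPM in WT and 7643 ± 369 CPM in KO (SD, n = 6). The log2 ratio of the COX1 locus to that sum was 2.89 ± 0.07 in WT and 3.34 ± 0.07 in KO, and that of Novel00516 (COX3) was 0.33 ± 0.08 and 0.81 ± 0.08 (SD, n = 6). In both, all 6 KO libraries were above every WT library (exact two-sided permutation p = 0.00216 each, 0.00289 adjusted over the 4 ratios). The 36 nuclear genes of complex I summed to 14439 ± 661 CPM in WT and 10690 ± 732 CPM in KO. Novel01178 (ND5) rose against them, from −4.70 ± 0.06 to −4.40 ± 0.12 (log2 ratio, SD, n = 6; exact permutation p = 0.00216, 0.00289 adjusted). The ND2 row was at −2.02 ± 0.06 in WT and −1.92 ± 0.09 in KO, a difference of 0.09 with 4 KO libraries above the WT range (exact permutation p = 0.0584). Such a ratio shows that its parts changed unequally and no more. The nuclear genes had already been seen to be lower, and the COX1, COX3 and ND5 loci had not been called. A rise of their ratios was therefore largely set beforehand. The p-values of these ratios are not independent evidence of that fall or of a difference between the loci and the nuclear genes.

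**Figure D5:**
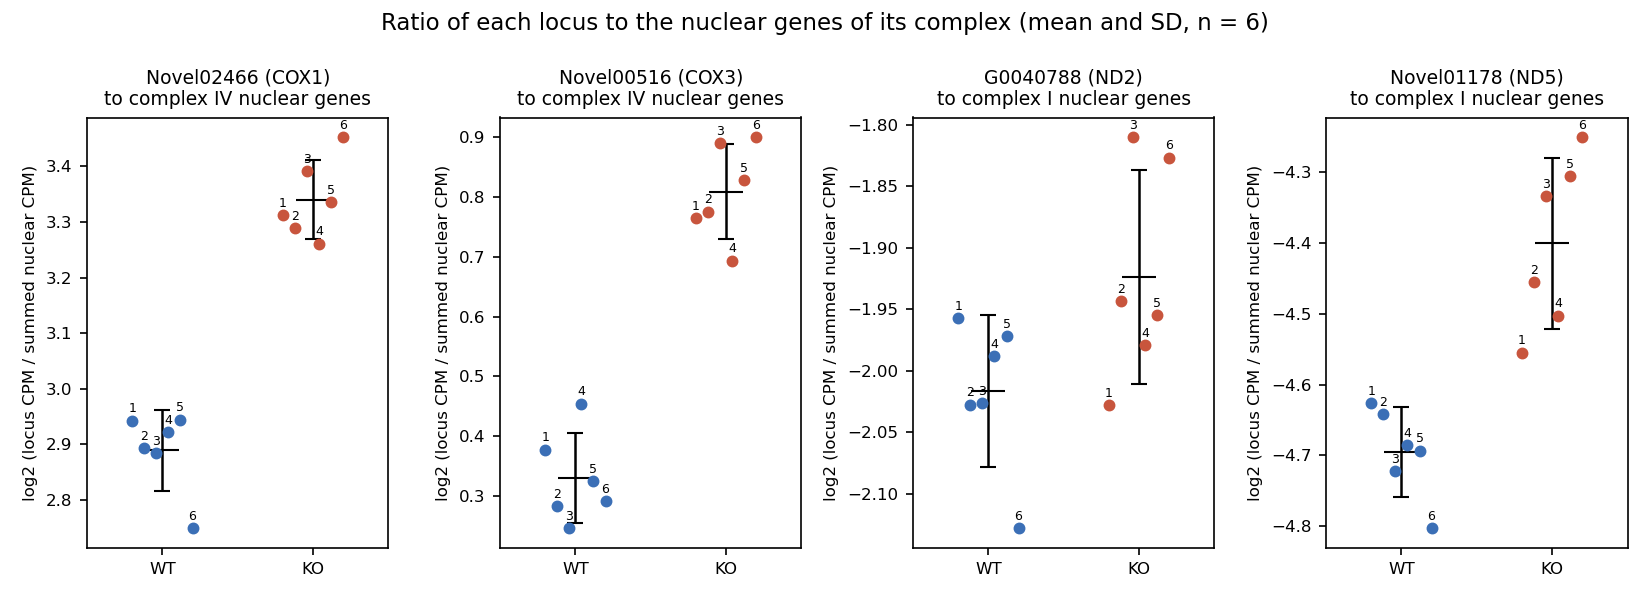
Ratio of the most counted locus of each protein to the summed CPM of the nuclear genes of its complex (y axis, log2, with its own range in each panel) in each library, with replicate numbers, mean and SD. The KO libraries are above all WT libraries for COX1, COX3 and ND5, and the groups overlap for ND2.

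Nuclear genes for the expression of mitochondrial DNA were mixed. Of 49 tested genes of this list, 23 were lower and 7 higher in KO and 19 did not pass (median log2 fold change −0.20). That is 46.9% lower and 14.3% higher, where all rows gave 25.5% and 25.6%. Among those for transcription from mitochondrial DNA 6 of 8 were lower. Tfb1m, the methyltransferase of the small mitochondrial ribosomal RNA, was at 8.11 to 10.5 CPM in WT and 3.05 to 4.17 CPM in KO (−1.35 ± 0.11 SE, edgeR adjusted p = 2.79e-08). Polrmt, the mitochondrial RNA polymerase, was lower by a small amount (−0.20 ± 0.08, adjusted p = 0.0401). That call was lost, with adjusted p from 0.0689 to 0.0873, when WT replicate 1, 3 or 6 or KO replicate 1, 4, 5 or 6 was left out. Tfam, which packages mitochondrial DNA and starts its transcription, was at 45.5 to 51.1 CPM in WT and 46.2 to 57.4 CPM in KO and did not pass (0.10 ± 0.06, adjusted p = 0.158). Mrpl12, a protein of the mitochondrial ribosome that also binds the polymerase, was higher (0.32 ± 0.05, adjusted p = 7.77e-05).

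Of 21 genes for mitochondrial RNA processing and stability, 7 were lower and 6 higher, which is 33.3% and 28.6% and near the shares of all rows. Lrpprc, which stabilises mitochondrial messenger RNAs, was at 224 to 246 CPM in WT and 138 to 179 CPM in KO (−0.64 ± 0.06 SE, edgeR adjusted p = 9.19e-08). Hsd17b10, a subunit of the mitochondrial RNase P and an enzyme of isoleucine breakdown, fell by 0.87 on the log2 scale (adjusted p = 1.71e-08), and the RNA-binding protein gene Fastkd1 fell by 0.96 (adjusted p = 6.16e-09). Higher were Ptcd2, a pentatricopeptide protein of mitochondrial transcript processing (0.40 ± 0.07, adjusted p = 0.000122), and Supv3l1, the helicase of the mitochondrial RNA degradosome (0.37 ± 0.07, adjusted p = 0.000369). Among 13 genes for replication and upkeep of mitochondrial DNA, 9 were lower and 0 higher. Of 7 coactivators and transcription factors of mitochondrial biogenesis 1 was lower and 0 higher, and Ppargc1a was at 113 to 132 CPM in WT and 82.7 to 173 CPM in KO (−0.03 ± 0.15 SE, adjusted p = 0.891).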

How the data were processed

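Poly-A RNA was sequenced from 6 WT and 6 KO hearts. The authors mapped reads (HISAT2 2.0.5 and mm10 by the submitters' processing notes, although the row identifiers are of the C57BL/6NJ assembly) and deposited raw read counts per row from HTSeq. They also deposited FPKM values per library, from counts, row length and library total, and the row lengths themselves. The authors' own columns (group means, fold changes, p-values) were not used. The strand setting of counting is not given in the sources used here. Rows were selected with a script, and the loci and gene lists were chosen with earlier results of these data known.

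The main test used edgeR 4.0.16 under R 4.3.3 (rows with enough counts by filterByExpr, 17155 in all, TMM, robust quasi-likelihood test, Benjamini-Hochberg over all rows kept). CPM are TMM-scaled, except marker sums, which use library totals. Intervals are at 95%. Ratios were compared by exact two-sided permutation over the 12 libraries. Sequences came from GENCODE M21 (GRCm38), compared with blastn 2.17.0. On simulated counts for KO against WT (17155 rows, 200 changed by a log2 fold of 1) 156 were recovered with 9 false calls. The labels number the libraries without saying more on their origin, so p-values measure the spread between these samples. Alternatives were DESeq2 1.42.0 (size factors, Wald test), limma-voom (3.58.1), library size only, TMM without the loci, other filters, a block on the replicate number and each library left out. A fit without the COX1 locus was added after the data had been seen, and the ratios were not among the planned tests either. Genes named from the lists are the 3 smallest p-values in each direction of each list, Tfam, Polrmt, Lrpprc and Ppargc1a. No sequence is given for the loci themselves, and proteins and the C57BL/6NJ genome were not analysed here.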

Additional observations from a re-analysis of the deposited data

Results flagged for a closer look

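Values that stood apart within their group of 6 libraries were looked for in CPM with Dixon's gap criterion at the 95% level, over 52 groups, of which chance alone would mark about 1 in 20 (2.6), and 6 were marked. Among the 7 loci it was Novel01178 (ND5) in WT replicate 6, at 484 CPM where the other WT libraries were at 558 to 590. Sdhaf4 was at 2.73 CPM in KO replicate 1 and at 2.25 to 2.42 in the other KO libraries. The other 4 values were in KO replicate 3, which is also the KO library with the highest values in 6 of the 7 loci. There Ndufs6 was at 275 CPM (246 to 257 in the others), Ndufa5 at 334 (270 to 284), Lrpprc at 179 (138 to 153) and Cox6a1 at 101 (121 to 127), each nearer to the WT values than the rest of the group.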

How the results depend on the processing

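Of 329 recomputed values, 327 kept their direction and their side of the threshold or stayed within 1.5 times a count. For the share of counts the rule was a move of less than its pooled SD, 0.82 percentage points. Calls of single genes of the gene lists are not among the 329. The number of loci called at an adjusted p under 0.05 was 1 under each other normalization, test and filter and without the COX1 locus. It ran from 1 to 2 when single libraries were left out, and was 2 without KO replicate 3, where Novel01178 (log2 fold change −0.19, adjusted p = 0.034 in edgeR's test) was called as well. The ND2 row ran from −0.41 to −0.30 over the fits without 1 library (adjusted p from 7.09e-05 to 0.00678) and from −0.34 to −0.33 under the others. The log2 fold change of each of the 7 loci was below 0 in all alternatives run. No pairing by replicate number was seen, as the deviations of same-numbered libraries correlated between −0.162 and 0.024. Such a check cannot show that the libraries were unpaired. With a block on the replicate number the ND2 row was at −0.34 (adjusted p = 0.00485) and 1 locus was called, with no change of call among the 7. Of the nuclear genes named, Cox8a (adjusted p = 0.055) and Polrmt (0.0618) lost their call with the block, which left 2 higher respiratory chain genes and 22 lower genes of mitochondrial gene expression. The share of counts taken by the loci was lower in KO by 0.54 percentage points, or by 0.13 without the COX1 locus and 0.15 with it out of the total as well. The lists kept 69 to 70 lower nuclear respiratory chain genes and 22 to 27 lower genes of mitochondrial gene expression. Depth does not limit the 7 loci, which had at least 1749 counts in every library.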

Other observations

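Some rows that the selection did not take lie beside the loci or beside a row named for a mitochondrial gene, and they are named here after their values were seen. On chromosome 4, where none of the 7 loci lies, the table has a row named mt-Nd6 (chr4:82625944-82626462, 519 bases) with 0 counts in all 12 libraries. For a library taken alone, this 0 allows an expected count of up to 3. Over all 12 together, the mean allowed per library is lower. Beside the mt-Nd6 row, MGP_C57BL6NJ_G0013027 (chr4:82624781-82625936, counted length 922 bases) had 96445 counts over the libraries and a log2 fold change of −0.12 ± 0.08 (SE, adjusted p = 0.232 in edgeR's test). In the C57BL/6J reference the genes in that order are Gm11407, like mt-Nd5 (92.3% identity), Gm11408, like mt-Nd6 (93.6%), and Gm11410, like mt-Cytb (92.9%).

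On the other side of the mt-Nd6 row, MGP_C57BL6NJ_G0000394 (chr4:82626463-82626594, counted length 69 bases) had 2927 counts. It was at 12.6 to 17.1 CPM in WT and 1.67 to 4.87 CPM in KO, so that the groups did not overlap, as in 30.1% of all rows tested. Its log2 fold change was −2.40 ± 0.19 (SE, adjusted p = 4.54e-08 in edgeR's test), further from 0 than that of any of the 7 loci. A row of 64 bases beside Novel01178, MGP_C57BL6NJ_G0000392, was at 19.7 to 25.1 CPM in WT and 17.1 to 25.4 CPM in KO (−0.20 ± 0.09 SE, adjusted p = 0.0822). On chromosome 2 a row of 672 bases on the strand of the ND2 row, MGP_C57BL6NJ_G0025807 (chr2:20892851-20893522), had 0 counts in all libraries. It has the length of Gm13341 in the C57BL/6J reference, and no row like Gm13340, the COX1-like copy of that interval, stands between it and the ND2 row.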
